A study of Mus musculus with 10 samples.

Results

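The genes described here are 40 genes of G2 and mitosis, chosen by name from a fixed list of cyclins, mitotic kinases, checkpoint, kinetochore, spindle and cytokinesis genes. All 40 were found among the 49585 genes of the deposited count tables, and all 40 passed the filter on low counts. The series is a mouse model of liver cancer made by triple knockout of the Rb gene family. Livers or visible lesions were digested, and sorting on YFP marked cells in which Cre had recombined the floxed alleles. It holds 10 samples in 5 groups of 2, and count columns could be tied by name to the 2 organoid groups, named Ck19-derived and Sox9-derived organoids in the labels, with 2 libraries each. The labels give no genotype, age or culture condition for a single library. Whether 2 libraries of a group stand for different animals or cultures is not stated, so each p-value covers only the spread between these libraries, which may be technical.

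Cells that leave S phase enter mitosis when cyclin B and the kinase CDK1 become active together. Mitotic kinases, kinetochores and the spindle then align the chromosomes, the checkpoint holds anaphase until every chromosome is attached, and destruction of cyclin B ends mitosis. Many of these genes are switched by one control system. In resting cells the Rb relatives encoded by Rbl1 and Rbl2 join the MuvB proteins in the DREAM complex, which binds a short promoter element, the cell cycle genes homology region (CHR), and keeps the genes off. In cycling cells MuvB works instead with B-Myb (Mybl2) and FOXM1 (Foxm1), and the genes are turned on, often with the CCAAT-binding factor NF-Y.

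Those elements can be read in the promoters of the members. RefSeq promoter windows (build GRCm38.p6) reached from 250 bases before to 50 bases after the start, and 32 of the 40 members had one. The letters TTTGAA, the common form of the CHR, were searched on both strands, and 23 of the 32 members held them (71.9%), against 20.2% of all 27025 genes with a window. The letters CCAAT, the NF-Y box, were found on either strand in 23 of 32 (71.9%), against 41.1% of all genes. Both stood together in 20 of 32 (62.5%), against 8.97%. In 21 of the 23 the CHR letters began within 50 bases of the start, the exceptions being Kif2c and Mki67. The CHR letters were held by 25 of 35 other spindle, kinetochore and cytokinesis genes with a window (71.4%), 7 of 15 condensin and cohesin genes (46.7%) and 1 of 12 S-phase genes (8.33%). The CHR and NF-Y letters do not overlap each other as motifs, and a match is a description of the sequence, not a measured binding site.

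These 6 stretches are shown because their genes span the levels and differences reported here, and 5 of them carry the CHR. Each is the DNA just before the RefSeq start, 5′ to 3′ on the strand of the gene. Capitals mark TTTGAA or CCAAT on either strand (TTCAAA and ATTGG are the same elements read on the other strand), and in Mybl2 alone GGCGGG, a form of E2F site that also matches part of the GC box. Mybl2 had neither CHR nor CCAAT letters in its window. GGCGGG on either strand was held by 25 of 32 member windows (78.1%) and 37.9% of all genes. The stretches lie at chr10:69352913-69353052 (minus strand, Cdk1), chr4:118437344-118437483 (minus, Cdc20), chr11:99024190-99024329 (minus, Top2a), chr2:164769789-164769928 (plus, Ube2c), chr7:135716380-135716579 (minus, Mki67) and chr2:163054495-163054634 (plus, Mybl2).
Cdk1: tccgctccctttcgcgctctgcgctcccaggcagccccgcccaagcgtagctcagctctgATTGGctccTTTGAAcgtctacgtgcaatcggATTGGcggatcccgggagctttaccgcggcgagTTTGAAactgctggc
Cdc20: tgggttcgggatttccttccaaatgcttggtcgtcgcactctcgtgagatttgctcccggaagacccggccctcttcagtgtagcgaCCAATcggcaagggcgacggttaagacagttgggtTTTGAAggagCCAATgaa
Top2a: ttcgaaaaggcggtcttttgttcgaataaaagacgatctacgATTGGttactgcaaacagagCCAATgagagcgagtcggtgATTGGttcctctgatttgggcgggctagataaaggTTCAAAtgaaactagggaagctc
Ube2c: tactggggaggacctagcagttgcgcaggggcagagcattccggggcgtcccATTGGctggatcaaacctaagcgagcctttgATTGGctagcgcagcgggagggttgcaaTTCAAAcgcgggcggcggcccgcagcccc
Mki67: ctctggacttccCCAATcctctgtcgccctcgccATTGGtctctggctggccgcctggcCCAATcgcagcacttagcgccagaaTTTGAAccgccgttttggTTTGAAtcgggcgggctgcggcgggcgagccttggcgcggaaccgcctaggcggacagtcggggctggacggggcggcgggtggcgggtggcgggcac
Mybl2: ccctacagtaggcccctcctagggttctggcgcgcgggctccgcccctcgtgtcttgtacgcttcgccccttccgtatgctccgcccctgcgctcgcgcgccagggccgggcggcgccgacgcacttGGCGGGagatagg

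**Figure D1:**
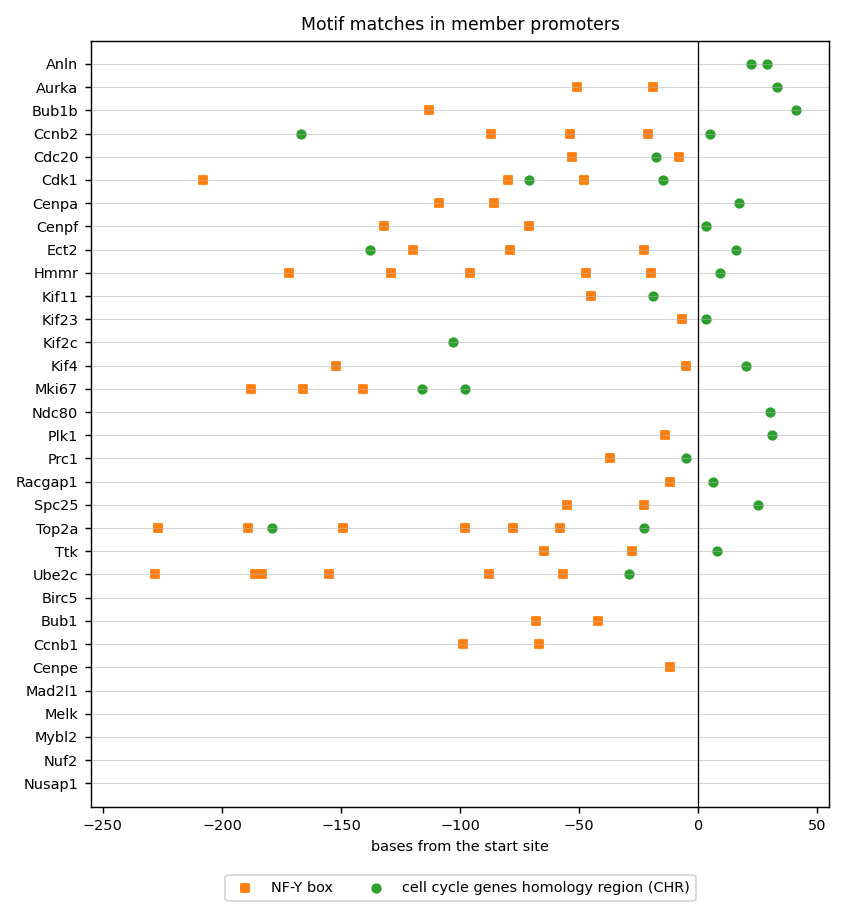
Matches to the CHR (circles) and the NF-Y box (squares) in the promoter windows of 32 members, with the position of the first base of each match in bases from the RefSeq start on the x axis and 1 row a gene. The CHR circles of 21 members lie within 50 bases of the start, and NF-Y squares lie mostly upstream of them.

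The libraries held 31883180 to 36606008 fragments assigned to genes. Duct epithelial markers were high in all 4, with Krt19 at 1945 to 3120 CPM (fragments scaled to the library total) and Epcam at 2101 to 3833 CPM. The sum of 6 such markers was 14161 and 13941 CPM in the Ck19-derived and 31067 and 26711 CPM in the Sox9-derived libraries. Of the 6, 4 had a fold change above 0 and 2 below 0. edgeR called Sox9 and Spp1 higher, and DESeq2 also called Cldn4 lower. Markers of other cells were near 0, with the summed level of 6 mesenchymal genes at 0.603 to 1.69 CPM, of 6 endothelial genes at 0.328 to 0.753 CPM and of 6 lymphoid genes at 0.125 to 0.366 CPM. The myeloid sum was 18.4 to 84.9 CPM, nearly all from Cd68 and Csf1r, while the leukocyte gene Ptprc stood at 0.0305 to 0.188 CPM. The summed level of 6 hepatocyte markers, mostly Ttr, was 123 and 158 CPM in the Ck19-derived and 171 and 545 CPM in the Sox9-derived libraries. The groups also differed in sex. Xist stood at 60.3 and 57.1 CPM in the Ck19-derived and 0.0273 and 0.0302 CPM in the Sox9-derived libraries, and the Y-linked Eif2s3y at 0.0941 and 0.0916 against 92.4 and 78.9 CPM. Origin of the culture, sex and animal therefore cannot be told apart in any group difference below. In bulk RNA, a higher share of dividing cells and more RNA of these genes per cell cannot be told apart either. Rb1, Rbl1 and Rbl2 were all detected, and whole-gene counts do not show whether exons were deleted.

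No member was called different between the groups, and the larger difference lay inside the Sox9-derived pair. Of the 40 members, 0 rose and 0 fell in the Sox9-derived organoids by edgeR's quasi-likelihood test at an adjusted p under 0.05, when 0.57% of the 16653 genes tested were called. The smallest adjusted p of a member was 0.159 (Mybl2). An unadjusted p under 0.05 was reached by 4 members (10%), all higher, against 16.8% of all genes tested in either direction and 7.64% higher. DESeq2 called 1 member higher (Mybl2), where it called 3.97% of all genes higher, and limma-voom called 0, where it called 0.558% of all genes. The fitted log2 fold changes nevertheless lay above 0 in 34 of 40 members, with a median of 0.51 and a range from −0.27 to 1.29. Over all genes tested 50.4% lay above 0 and the median was 0.01.

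**Figure D2:**
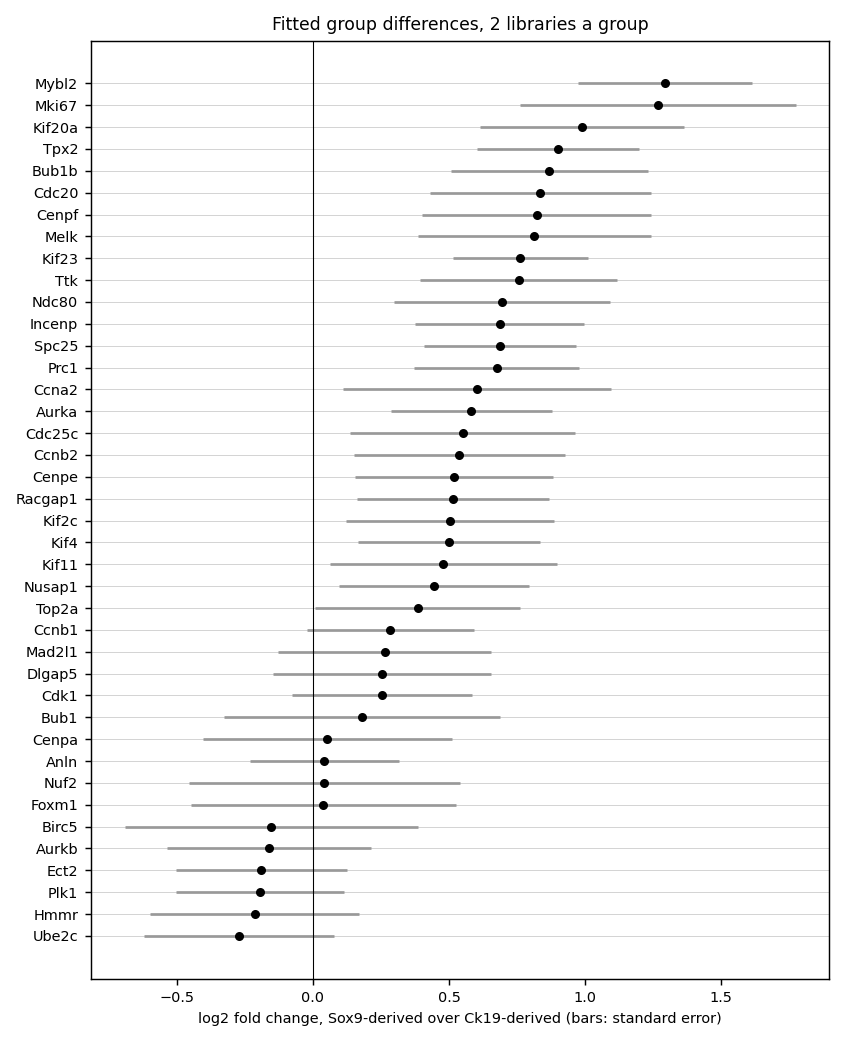
Fitted log2 fold change, Sox9-derived over Ck19-derived organoids, on the x axis for each of the 40 members, with bars of 1 standard error (2 libraries a group). Points run from −0.27 (Ube2c) to 1.29 (Mybl2), 34 of them above 0. edgeR called 0 of them, and DESeq2 called Mybl2.

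Both Sox9-derived libraries stood above both Ck19-derived libraries in 12 of 40 members (30%), against 24.6% of all genes tested. That share is near the background. Both stood below in 0 members, against 26.3% of all genes. The other 28 members overlapped between the groups.

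Inside the Sox9-derived pair, library 2 was above library 1 in all 40 members, against 49.7% of all genes tested. The median log2 ratio of library 2 over library 1 was 0.93 (a 1.91-fold difference), and it ran from 0.48 (Bub1b) to 1.58 (Birc5). The summed hepatocyte markers were also higher in library 2 (171 and 545 CPM, mostly Ttr), and their part in this difference was not tested. Over all genes tested the median was −0.00. In the Ck19-derived pair library 2 was above library 1 in 36 of 40 members, against 50.9% of all genes, with a median log2 ratio of 0.38, and the exceptions were Ndc80, Incenp, Plk1 and Bub1. Library numbers carry no order in the labels, and the members are not independent of each other, so these counts describe the libraries and carry no test.

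The direction depended on which libraries were compared, and 22 of 40 members changed sign when 1 library was left out. Sox9-derived library 2 was above Ck19-derived library 1 in 40 of 40 members and above Ck19-derived library 2 in 39 of 40, all but Ube2c. Sox9-derived library 1 was above Ck19-derived library 1 in 25 of 40 and above Ck19-derived library 2 in 12 of 40. The summed level of the 40 members was 4696 and 6104 CPM in the Ck19-derived and 4780 and 9240 CPM in the Sox9-derived libraries. Without Sox9-derived library 1, edgeR called 13 members higher and 0 lower (2.67% of all genes were called higher), and the median was 0.92. Without Sox9-derived library 2 it called 0 members (2.17% of all genes were called higher) and the median was −0.09. The 13 were Ccna2, Cdc20, Cenpf, Incenp, Kif20a, Kif23, Melk, Mki67, Mybl2, Ndc80, Prc1, Spc25 and Tpx2. With a single library left in a group, the spread comes from the other pair alone.

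**Figure D3:**
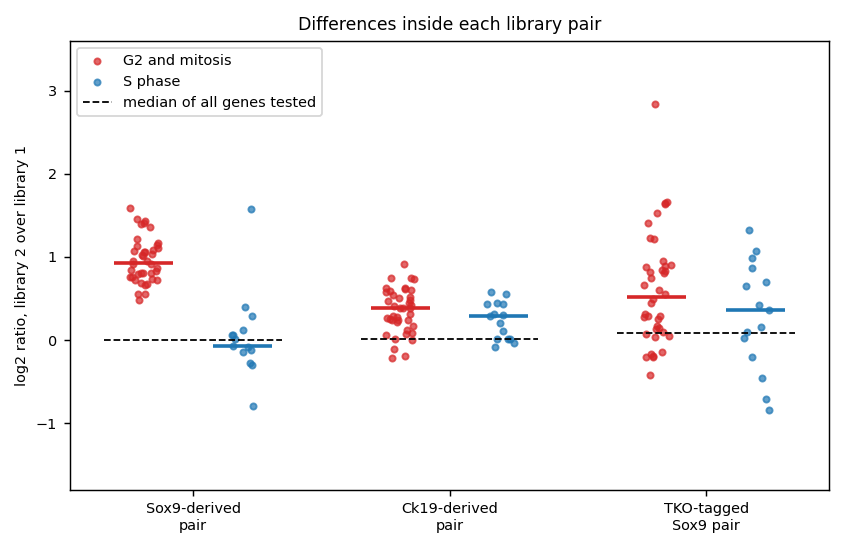
Log2 ratio of library 2 over library 1 (y axis) for the 40 G2 and mitosis genes (red) and 15 S-phase genes (blue) in the Sox9-derived, Ck19-derived and TKO-tagged Sox9 pairs. Points are genes, bars the medians of each list, and dashed lines the median of all genes tested. The red points of the Sox9-derived pair lie between 0.48 and 1.58. The lowest S-phase ratio of that pair, −3.14, lies below the axis and is not drawn.

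Values below are CPM, with library 1 before library 2 of each pair. Among the genes of mitotic entry, Cdk1 had the highest mean CPM of the 40 members in the Ck19-derived organoids. Cdk1 (ENSMUSG00000019942, chromosome 10, 69336635 to 69352938), the kinase that drives mitosis, stood at 379.9 and 538 CPM in the Ck19-derived and 399 and 691 CPM in the Sox9-derived libraries. Its groups overlapped (a log2 difference of 0.25, SE 0.33, with an adjusted p of 0.761 by edgeR). Ccnb1, its main mitotic cyclin, stood at 147 and 196 CPM against 157 and 259 CPM, and Ccnb2, the other B cyclin, at 212 and 322 CPM against 263 and 508 CPM. Ccna2, the cyclin of S phase and G2, stood at 147 and 204 CPM against 146 and 385 CPM. In Cdk1, Ccnb1 and Ccnb2 library 1 of the Sox9-derived pair lay between the Ck19-derived values, in Ccna2 it lay just below them, and library 2 was the highest of the 4 in each. Cdc25c, a phosphatase that activates CDK1, followed at lower levels, with 23.2 and 39.1 CPM against 32.1 and 58.8 CPM. The log2 fold changes of the 5 genes of this role ran from 0.25 to 0.60.

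Levels were ordered per kb of exon, as mean CPM per kb, because longer transcripts give more fragments. The same 5 genes led in both groups. In the Ck19-derived organoids these were Ccnb2 (174), Ube2c (161), Cdc20 (161), Cdk1 (133) and Birc5 (100.3). In the Sox9-derived organoids the order was Cdc20 (286), Ccnb2 (252), Cdk1 (158), Ube2c (133) and Birc5 (89.8). Neighbours in these orders overlapped between their libraries. Library 2 was the higher in each of these genes in both pairs, so the overlap does not describe the order inside a library. The lowest levels per kb in the Ck19-derived organoids were those of Ttk (4.23), Mybl2 (4.28), Cenpf (4.70), Foxm1 (5.50) and Mki67 (5.53). In the Sox9-derived organoids they were those of Foxm1 (5.63), Bub1 (6.94), Ttk (7.12), Cenpf (8.26) and Kif4 (8.59). Ube2c shares 22.8% of its exon bases with antisense Tnnc2, and the counting ignored strand. Ccna2 shares 12.5% with antisense Exosc9, and Prc1 shares 11.1% with antisense Rccd1.

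The genes of the transcription factors that switch the members on had unlike values. Mybl2 (ENSMUSG00000017861, chromosome 2, 163054687 to 163084688) stood at 18.2 and 21.5 CPM in the Ck19-derived and 36.7 and 60.3 CPM in the Sox9-derived libraries. Its groups did not overlap, and its fold change was the highest of the 40 (2.45-fold, log2 1.29, SE 0.32, edgeR adjusted p = 0.159). DESeq2 alone called it on all 4 libraries (adjusted p = 0.00799). Foxm1 stood at 30.7 and 32.6 CPM against 17.8 and 46.9 CPM, so both Ck19-derived values lay between the Sox9-derived ones. Its log2 fold change was 0.04 (SE 0.49, edgeR adjusted p = 0.981) and changed sign with limma-voom (−0.15).

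Mki67, the gene of the proliferation marker Ki-67 (ENSMUSG00000031004, chromosome 7, 135689784 to 135716361), had the next highest fold change. It stood at 48.3 and 63.0 CPM against 71.2 and 195 CPM. The groups did not overlap, but Sox9-derived library 1 exceeded the higher Ck19-derived value only narrowly (log2 fold change 1.27 ± 0.51 SE, adjusted p = 0.312 by edgeR). It was 0.36 without Sox9-derived library 2 and 1.83 without library 1. Top2a, the topoisomerase that untangles chromosomes, stood at 176 and 262 CPM against 197 and 372 CPM, with overlap (log2 fold change 0.38).

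Among the mitotic kinases, Plk1, which acts on centrosomes, kinetochores and cytokinesis, stood at 228 and 199 CPM against 135 and 237 CPM (a log2 difference of −0.19, SE 0.31, with an adjusted p of 0.810 by edgeR). Aurka, the centrosome kinase, stood at 101 and 134 CPM against 134.5 and 216 CPM, and Melk, a kinase of dividing cells, at 63.4 and 98.1 CPM against 90.4 and 192 CPM. Sox9-derived library 2 was the highest of the 4 in all 3 kinases. In the chromosomal passenger complex, which corrects faulty attachments, the kinase gene Aurkb stood at 232 and 252 CPM against 139.6 and 291 CPM. Birc5, or survivin, stood at 285 and 397 CPM against 153 and 458 CPM. Incenp, the scaffold, stood at 64.9 and 60.03 CPM against 73.1 and 128 CPM. Aurkb and Birc5 thus had their lowest value in Sox9-derived library 1 and their highest in library 2, and their log2 fold changes were −0.16 and −0.15, while that of Incenp was 0.69.

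The spindle checkpoint genes differed among themselves. Bub1b, which encodes BubR1, stood at 36.6 and 68.9 CPM against 80.1 and 112 CPM, and Ttk, the Mps1 kinase, at 15.6 and 26.02 CPM against 28.4 and 41.6 CPM. Neither overlapped between the groups (0.87 and 0.76 on the log2 scale, with edgeR adjusted p-values of 0.326 and 0.376). Bub1, the kinase that recruits other checkpoint proteins, stood at 28.8 and 24.7 CPM against 16.3 and 44.2 CPM, and Mad2l1, which inhibits CDC20, at 173 and 235 CPM against 159.5 and 328 CPM. Both of these overlapped. At anaphase, CDC20 activates the anaphase-promoting complex and UBE2C supplies it with ubiquitin. Cdc20 stood at 239.7 and 361 CPM against 351 and 715 CPM (log2 fold change 0.83 ± 0.41 SE, adjusted p = 0.383 by edgeR). Ube2c stood at 364 and 474 CPM against 239 and 452 CPM, the lowest fold change of the 40 (log2 −0.27, SE 0.35, edgeR adjusted p = 0.756).

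**Figure D4:**
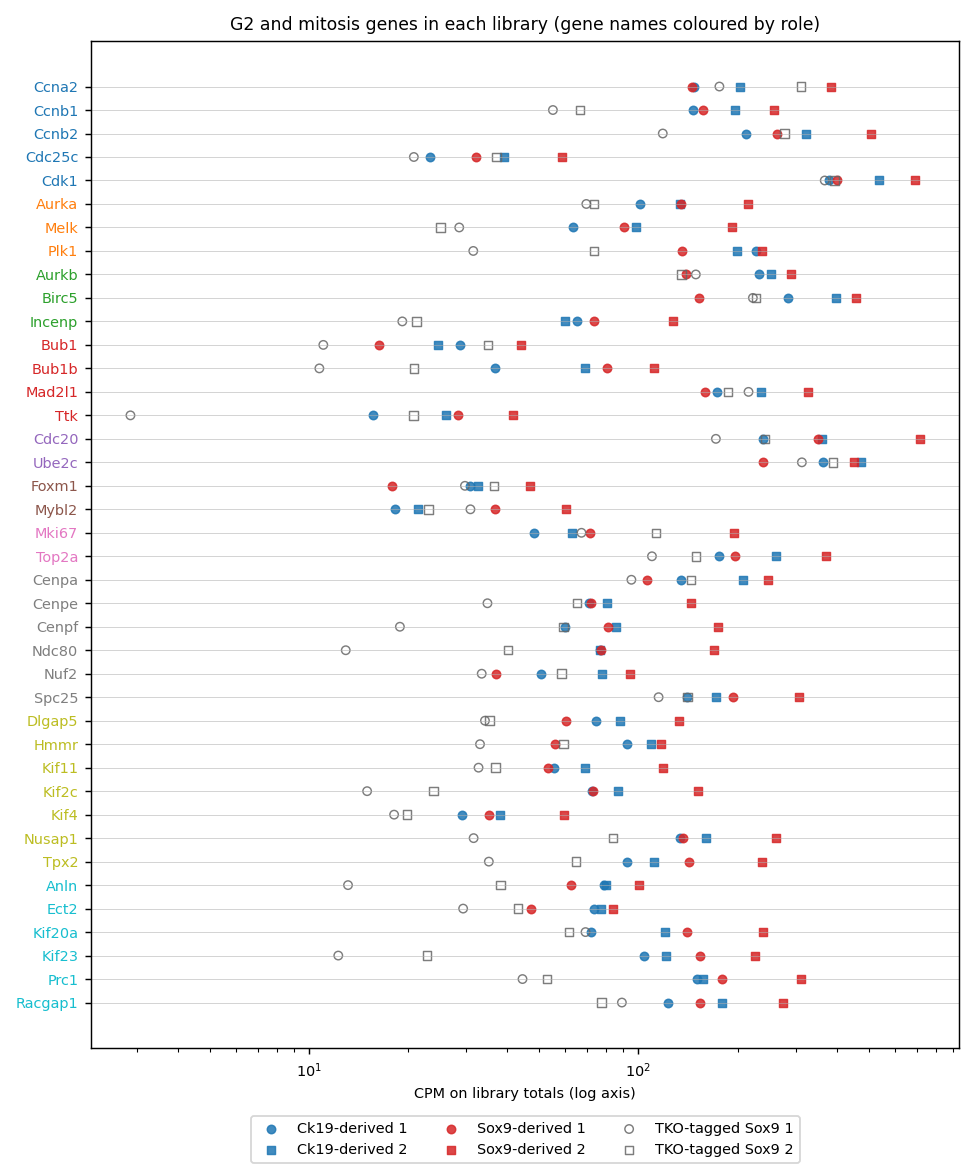
CPM on library totals (log axis) of each of the 40 members in every library, with blue for Ck19-derived, red for Sox9-derived and open symbols for TKO-tagged Sox9 libraries, circles for library 1 and squares for library 2. Gene names are coloured by role. Red squares lie above red circles in all 40 rows.

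At the centromere, Cenpa, the histone variant that marks it, stood at 135 and 208 CPM against 106 and 247 CPM. The corona genes Cenpe and Cenpf stood at 71.0 and 80.1 CPM against 71.6 and 144 CPM, and at 59.7 and 85.3 CPM against 80.7 and 174 CPM. Subunits of the NDC80 complex, which holds microtubules, were not alike. Spc25 stood at 140.01 and 172 CPM against 194 and 306 CPM with no overlap, and Ndc80 at 76.6 and 76.5 CPM against 77.1 and 169.8 CPM, where the Sox9-derived library 1 was hardly above the Ck19-derived pair. Nuf2 stood at 50.7 and 77.7 CPM against 37.0 and 94.6 CPM. The log2 fold changes of the 6 genes of this role ran from 0.04 (Nuf2) to 0.82 (Cenpf).

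Spindle genes also varied in their group difference. Tpx2, which activates Aurora A and nucleates microtubules, stood at 92.1 and 112 CPM against 142 and 237 CPM, with no overlap (a log2 difference of 0.90, SE 0.30, with an adjusted p of 0.239 by edgeR). Hmmr, a spindle-associated protein gene, stood at 92.3 and 109 CPM against 55.6 and 117 CPM (log2 fold change −0.21). Kif11, the motor that pushes spindle poles apart, stood at 55.4 and 68.8 CPM against 53.1 and 119 CPM. The microtubule depolymerase gene Kif2c, the chromokinesin gene Kif4 and the microtubule-binding protein genes Nusap1 and Dlgap5 had log2 fold changes from 0.25 to 0.50, and their groups overlapped. Kif4 itself stood at 29.2 and 38.05 CPM against 35.1 and 59.6 CPM. Of its exon bases, 15.1% also belong to antisense Pdzd11.

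Of the 6 cytokinesis genes, 3 were higher in both Sox9-derived libraries than in both Ck19-derived ones, against 24.6% of all genes tested. Kif20a, a kinesin of the cleavage furrow, stood at 71.6 and 120.1 CPM against 140.5 and 238 CPM (log2 fold change 0.99 ± 0.37 SE, adjusted p = 0.287 by edgeR), although Cdc23 on the other strand shares 33.2% of its exon bases. Kif23, a motor of the central spindle, stood at 104 and 121 CPM against 154 and 226 CPM (a log2 difference of 0.76, SE 0.25, with an adjusted p of 0.232 by edgeR), and Prc1, which bundles its microtubules, at 151 and 158 CPM against 179 and 312 CPM. Ect2, which activates RhoA at the furrow, stood at 73.3 and 76.8 CPM against 47.3 and 83.9 CPM (log2 fold change −0.19). Racgap1, the partner of Kif23, stood at 123 and 179 CPM against 154 and 275 CPM, and Anln, anillin, at 78.9 and 79.6 CPM against 62.6 and 100.1 CPM. These 3 overlapped between the groups.

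Members with and without the CHR letters can be set side by side. The 23 with a match had a median log2 fold change of 0.51 and the 9 with a window but no match 0.28. Inside the Sox9-derived pair their median log2 ratios of library 2 over library 1 were 0.84 and 1.04. These medians are descriptions of small sets and carry no test.

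Other cell cycle lists, chosen by name, were read in the same fit. Of 43 further spindle, kinetochore and cytokinesis genes, 1 rose and 0 fell by edgeR (0.57% of all genes tested were called). DESeq2 called 1 higher (Kpna2) and 2 lower (Gtse1 and Psrc1), where it called 9.26% of all genes. The list resembled the members inside the Sox9-derived pair, with 40 of 43 genes higher in library 2 (median log2 ratio 0.94) and 33 of 43 fold changes above 0 (median 0.33). The gene called by edgeR was Kpna2, an importin gene, at 9.16 and 12.7 CPM against 77.2 and 83.2 CPM (log2 fold change 2.88 ± 0.25 SE, adjusted p = 0.0389 by edgeR). Its log2 fold change was 2.66 and 3.10 without Ck19-derived library 1 or 2, and 2.95 and 2.82 without Sox9-derived library 1 or 2. Kpna2 was also called with limma-voom (2.89, adjusted p = 0.0394) and by edgeR without the count filter (2.89, adjusted p = 0.00182). It was not called with the replicate number as a block (2.89, edgeR adjusted p = 0.0983), a setting in which edgeR called 0 genes. Neither fit without a Ck19-derived library called it, and those fits leave a single library in that group. Of 18 condensin and cohesin genes edgeR called 0. By edgeR, 2 had an unadjusted p under 0.05 (11.1%, against 16.8% of all genes tested). In the Sox9-derived pair 15 of the 18 were higher in library 2. The cohesin subunit gene Stag1 had a log2 fold change of 1.42 and the securin gene Pttg1 one of −0.76. DESeq2 called both (adjusted p = 0.00147 and 0.0496), when it called 9.26% of all genes.

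Lists of genes that act on the members were read for both pairs. Of 17 anaphase-promoting complex genes, 12 were higher in Sox9-derived library 2 (median log2 ratio 0.12). Of 12 genes for MuvB, DREAM and NF-Y proteins, 7 were (median 0.03), and of 14 mitotic entry kinases and phosphatases, 9 were (median 0.38). In the Ck19-derived pair 12, 11 and 8 genes of these lists were higher in library 2. Differences between lists were not tested. edgeR called 0 genes of these lists (0.57% of all genes tested were called). By edgeR, 3, 4 and 0 had an unadjusted p under 0.05 (17.6%, 33.3% and 0%, against 16.8% of all genes). DESeq2 called 1 (Rbbp4), where it called 9.26% of all genes. Rbbp4, the histone-binding MuvB subunit, stood at 468 and 324 CPM against 808 and 792 CPM (a log2 difference of 1.01, SE 0.23, with an adjusted p of 0.139 by edgeR), and Nfyc, an NF-Y subunit, had 0.55. Of the exon bases of Rbbp4, 18.0% also belong to antisense Gm26722 and Sync. From the list for the anaphase-promoting complex, Anapc4 and Ube2s had log2 fold changes of 0.60 and 0.67. Among the entry genes Cdc25a and Wee1 had 0.57 and 0.55.

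Of 15 S-phase genes, 14 had a fold change above 0 (median log2 0.44). Both Sox9-derived libraries were above both Ck19-derived libraries in 11 of 15, against 24.6% of all genes tested. Library 2 was above library 1 in 13 of 15 in the Ck19-derived pair. In the Sox9-derived pair this held in 7 of 15, near the 49.7% of all genes. There the log2 ratio had a median of −0.08 and ran from −3.14 to 1.57. edgeR called 0 of them (0.57% of all genes tested were called). By edgeR, 5 of 15 had an unadjusted p under 0.05, all higher. Of all genes, 16.8% reached this in either direction and 7.64% higher. DESeq2 called 4 higher (Ccne2, Mcm2, Mcm4 and Pcna), where it called 3.97% of all genes higher. Pcna, the replication clamp, stood at 152 and 175 CPM against 374 and 344 CPM, which is 1.14 on the log2 scale with an adjusted p of 0.0789 by edgeR. Ccne2, a cyclin of S-phase entry, had a log2 fold change of 1.69. Of its exon bases, 17.4% also belong to antisense Ints8. The difference between the lists themselves was not tested.

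A further pair of columns carries Sox9 with a TKO tag and could by name also stand for the Sox9-derived samples. Most of their markers go against organoids of duct cells: Krt19 stood at 0.619 and 1.61 CPM, Epcam at 8.99 and 5.61 CPM and the hepatocyte gene Alb at 21740 and 13158 CPM. The 6 duct markers had a sum of 469 and 1131 CPM, below every organoid library, and a median of 4.90 and 3.61 CPM. In TKO-tagged library 2, 1 of the 6 was above Ck19-derived library 1 and 1 above Ck19-derived library 2. In TKO-tagged library 1 this held for 0 of them. The summed myeloid, endothelial and mesenchymal markers stood at 752 and 678, 94.8 and 59.6, and 171 and 71.95 CPM, above every organoid library. These libraries were deeper, with 53280136 and 59664959 fragments. Their counts were deposited separately from those of the organoid libraries, so a batch or processing difference cannot be told apart from the contrasts below. The part of other cells in the values that follow was not tested.

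All 40 members were detected there. Their summed level was 2990 and 3987 CPM, below each organoid library. Cdk1 stood at 368 and 394 CPM, close to the lower organoid values. Mki67 stood at 67.2 and 113 CPM and Mybl2 at 30.9 and 23.1 CPM. Plk1, at 31.5 and 73.3 CPM, Ccnb1, at 55.01 and 66.5 CPM, and Kif23, at 12.3 and 22.8 CPM, lay below every organoid library. Library 2 was above library 1 in 34 of 40 members (54.2% of the genes tested in the organoids that had a fragment in these libraries), with a median log2 ratio of 0.52 and the widest ratio in Ttk, at 2.87 and 20.8 CPM.

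Whether the members as a set were lower in the TKO-tagged libraries than in the Ck19-derived organoids depended on the scaling. On library totals the median log2 fold change of the members was −0.79, and that of all 17938 genes tested was −0.82. With TMM these medians were −0.03 and −0.07, so the median of the members lay near that of all genes under both. Single members were called at shares below those of all genes in each direction. With TMM edgeR called Mki67 and Mybl2 higher (log2 fold changes 1.45 and 1.21, adjusted p = 0.0303 and 0.0460) and Kif23, Prc1 and Kif2c lower (−1.93, −0.91 and −1.28, adjusted p = 0.0191, 0.0373 and 0.0356). That is 2 higher and 3 lower of 40, when 15% of all genes were called higher and 14% lower. On library totals 0 were called higher and 10 lower (10.9% and 28.8% of all genes), Kif23, Prc1 and Kif2c among them.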

How the data were processed

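Bulk RNA was sequenced from mouse liver cells and organoids. Per the file headers, the deposited raw counts per gene came from featureCounts 1.5.0-p3 with Ensembl release 87 (GRCm38): pairs mapped at both ends, mapping quality 10 or more, no use of strand. The submitters' processing notes also name STAR 2.5.4b, edgeR and limma. Only primary alignments were counted, and duplicates were to be ignored, although the deposited summaries list 0 removed.

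Column names alone linked columns to samples. The Ck19 and Sox9 columns gave 4 libraries. After the files were seen, 2 columns with Sox9 and TKO were added as an alternative. The remaining 4 columns fit no label and were left out, and 6 samples without a column were not analysed here.

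Here, genes were filtered with filterByExpr (minimum count 10), scaled by TMM (factors 0.992 to 1.01) and tested by edgeR's quasi-likelihood test (version 4.0.16, R 4.3.3), two-sided, with Benjamini-Hochberg adjustment over 16653 genes and a threshold of 0.05. There were 2 residual degrees of freedom. CPM is on library totals, and log2 CPM has a prior count of 2. The standard error (SE) is the size of the log2 fold change over the square root of F. Symbols matched 49326 of 49585 gene IDs. In simulated data for this comparison (15968 genes, 200 changed) edgeR found 12% of genes changed 2-fold and 60% of those changed 4-fold, and 5 of its 139 calls were false. The alternatives were relative log expression factors, library totals, no filter, DESeq2 1.42.0, limma-voom (limma 3.58.1), each library left out, and a replicate block. Members, lists and alternatives were chosen with earlier results of these data known. Library values were to be given for members called or with an unadjusted p under 0.05, the 5 highest and 5 lowest by fold change and by level per kb, and 7 fixed genes. Further members were added by role. Of other lists, called genes or the 2 with the smallest p are named.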

Additional observations from a re-analysis of the deposited data

How the results depend on the processing

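edgeR called 95 genes in the organoid comparison, 506 without the count filter, 0 with the replicate number as a block and from 0 to 1394 in fits without 1 library. DESeq2 called 1512. With relative log expression factors, library totals or limma-voom the number was within 1.5 times. The members called, 0 with edgeR, were 1 with DESeq2 and from 0 to 13 in fits without 1 library. Their median log2 fold change of 0.51 ran from −0.0942 to 0.92 in those fits, kept its sign under the other settings on these libraries, and was 0.44 with the replicate block. With the TKO-tagged columns, an alternative chosen after seeing the data, 5190 genes and 5 members were called with a median of −0.0339 under TMM, and 7118 genes and 10 members with a median of −0.79 on library totals. The labels do not say whether same-numbered libraries share more than a number. Their deviations had a correlation of 0.06 over the genes tested. Among the 40 members, though, library 2 was the higher in 40 in the Sox9-derived and 36 in the Ck19-derived pair (49.7% and 50.9% of all genes). The log2 fold change changed sign with limma-voom in Anln (−0.0056), Bub1 (−0.0129), Cenpa (−0.0524), Foxm1 (−0.15) and Nuf2 (−0.10), and with the block in Cenpa (−0.0430), Foxm1 (−0.13) and Nuf2 (−0.0845). In fits without 1 library the sign changed in 22 members and held in 18, whose lowest values ran from 0.0081 (Ndc80) to 0.88 (Mybl2) and highest from 0.85 (Kif4) to 1.83 (Mki67). The ranges over those fits were −0.34 to 0.36 for Anln, −0.79 to 0.29 for Aurkb, −1.16 to 0.45 for Birc5, −0.72 to 0.74 for Bub1, −0.27 to 1.16 for Ccna2, −0.12 to 0.62 for Ccnb1, −0.0217 to 0.95 for Ccnb2 and −0.20 to 0.61 for Cdk1. They were −0.69 to 0.55 for Cenpa, −0.0783 to 0.95 for Cenpe, −0.43 to 0.73 for Dlgap5, −0.67 to 0.18 for Ect2, −0.83 to 0.59 for Foxm1, −0.86 to 0.24 for Hmmr, −0.23 to 0.96 for Kif11 and −0.13 to 0.95 for Kif2c. For the others they were −0.36 to 0.71 for Mad2l1, −0.80 to 0.58 for Nuf2, −0.11 to 0.86 for Nusap1, −0.66 to 0.17 for Plk1, −0.15 to 0.79 for Top2a and −0.81 to 0.13 for Ube2c. The cause was not tested. A prior count of 0.5 or 5 moved no library's median level by more than the spread between libraries. Each group has 2 libraries, and Mybl2 had the fewest fragments of the members in the Ck19-derived pair, 1284 in all.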
